A study of Mus musculus with 4 samples.

Results

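The 10 genes described here encode receptors, signal transducers and feedback regulators of the interleukin-6 (IL-6) family and of interleukin-1 (IL-1): Il6ra, Il6st, Osmr, Lifr, Stat3, Socs3, Il1r1, Il1rap, Il1rn and Cebpd. They were selected by gene symbol, and all 10 were found among the 27027 entries of the count table. Hepatic RNA came from male C57BL/6J mice aged 9 to 12 weeks that were fasted for 10 h and then given either 300 mg/kg acetaminophen (APAP) intraperitoneally, which causes acute liver injury (ALI), or 0.9% NaCl as vehicle. RNA was pooled in equal shares from 6 control mice per time point (vehicle pools, 24 h and 48 h) and from 7 mice given APAP per time point (APAP-treated pools), and each pool gave 1 library. The libraries were made by massive analysis of cDNA ends (MACE), which reads the 3′ ends of polyadenylated transcripts.

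Between 4859661 and 5698778 reads were counted on genes per library. With 1 library per group there was no replicate within a time point, so the comparisons at 24 h and at 48 h carry no p-value, and APAP was tested against vehicle over both times together only. Each fold is a ratio of reads after scaling by size factors (normalized reads), and the interval printed with it is the 95% exact interval that counting error alone allows, which leaves out differences between mice and between pools. A gene is counted as higher or lower where its fold was at least 2 in either direction and this interval did not reach 1. The hepatocyte markers Alb, Ttr, Apoa1, Apob, Serpina1c, Tat and Hnf4a were present in all 4 libraries, and none of the 7 passed this rule at either time.

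Cytokines of the IL-6 family bind a private receptor chain, such as the IL-6 receptor alpha chain or the oncostatin M receptor, and signal through the shared chain gp130, which Il6st encodes. Janus kinases bound to these chains phosphorylate the transcription factor STAT3, which drives acute-phase genes in hepatocytes and also Socs3, whose product closes the loop by blocking the receptor complex. IL-1 signals through the receptor Il1r1 and its accessory chain Il1rap towards NF-kappaB, its antagonist Il1rn occupies the receptor without signalling, and Cebpd encodes C/EBP-delta, a transcription factor that responds to both cytokines during the acute phase.

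The promoters of the 2 genes below are shown because each holds a binding motif of a factor in this pathway, and because both genes were higher after APAP at 24 h. RefSeq gave promoter windows, from 250 bases before to 50 bases after the start site, for 9 of the 10 genes, in 13 windows (GRCm38.p6). The STAT motif TTCNNNGAA was found in 1 of the 9 genes, Socs3, and in 8.3% of 32851 mouse promoter windows. The C/EBP motif TTGCNNAA was found in 1 of the 9 genes, Il1r1, and in 10.8% of the 32851 windows. Each motif lay in 1 of the 13 windows of the 9 genes, which is too few to compare with these shares. Il1r1 has a second window, chr1:40266336-40266635, which held neither motif and is not shown. Both strands were searched, and the motifs do not overlap in these windows. The capitals mark the motif, TTCTTAGAA at position -154 from the start site of Socs3 in chr11:117969317-117969616 on the minus strand, and TTGCTGAA at position -133 from that of Il1r1 in chr1:40224830-40225129 on the plus strand.
Socs3: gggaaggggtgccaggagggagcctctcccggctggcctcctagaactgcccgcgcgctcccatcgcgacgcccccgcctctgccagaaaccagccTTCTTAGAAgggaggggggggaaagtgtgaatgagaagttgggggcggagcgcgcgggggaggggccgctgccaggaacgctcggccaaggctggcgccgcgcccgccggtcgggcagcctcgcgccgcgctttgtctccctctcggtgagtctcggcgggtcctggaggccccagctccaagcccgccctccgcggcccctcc
Il1r1: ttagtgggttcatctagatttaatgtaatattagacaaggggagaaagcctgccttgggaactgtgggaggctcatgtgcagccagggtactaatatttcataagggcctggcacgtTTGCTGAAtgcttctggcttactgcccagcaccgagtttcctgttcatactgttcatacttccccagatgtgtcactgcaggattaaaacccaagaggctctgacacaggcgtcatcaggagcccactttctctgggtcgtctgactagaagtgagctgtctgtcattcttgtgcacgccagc
These matches describe the letters in the windows, and no binding was measured. The RefSeq start site of Socs3, at 117969366, lies 180 bases upstream of the start of its coding transcript in GENCODE, at 117969186. The window shown ends upstream of that second start, and the bases next to it were not searched.

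At 24 h, 4 of the 10 genes were higher in the APAP-treated pool than in the vehicle pool, namely Socs3, Cebpd, Il1r1 and Osmr, and none was lower. Of all 12185 genes averaging at least 10 reads, 4.97% were higher by the same rule and 4.91% were lower. At 48 h, 4 of the 10 were again higher and none lower, namely Socs3, Cebpd, Il6ra and Il1rn, against 4.88% of all genes higher and 4.95% lower. The median log2 fold of the 10 genes came to 0.74 and 1.08 at 24 h and 48 h, beside 0.01 and -0.01 over all genes tested.

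By the interval alone, without a minimum fold, 7 of the 10 lay above 1 at 24 h, 2 lay below 1 (Lifr and Il1rap) and 1 reached 1 (Il1rn), where 15.4% of all genes lay above and 18.2% below. At 48 h, 6 lay above 1, the same 2 lay below 1 and 2 reached 1 (Il6st and Osmr), where 14% of all genes lay above and 18.8% below. The 10 genes thus did not all lie on one side of control, since the receptor chains Il1r1, Osmr, Il6ra and Il6st stood above control at 24 h while Il1rap and Lifr stood below it. For Lifr at 24 h this depended on the scaling, since with library totals its interval held 1.

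Taking the pools of both times as replicates of a treatment, a test added after the data were seen, 5 of the 10 genes passed an adjusted p of 0.05 (edgeR's quasi-likelihood test with Benjamini-Hochberg adjustment over 12185 genes). The log2 fold was 2.41 for Cebpd (adjusted p = 0.00477), 2.40 for Socs3 (adjusted p = 0.0152), 1.6 for Il1r1 (adjusted p = 0.0127), 0.79 for Stat3 (adjusted p = 0.0274) and -0.93 for Il1rap (adjusted p = 0.00816). Of all genes, 2.11% were higher and 4.24% lower by this test, which counts differences between 24 h and 48 h as spread. With time as a block, which pairs the pools of a time point, 8 of the 10 passed, with Il6ra and Osmr higher and Lifr lower in addition, against 4.87% of all genes higher and 8.37% lower. Il6st and Il1rn passed neither test. The test rests on few pools: none of the 10 passed without the 24 h vehicle pool and only Cebpd passed without the 48 h vehicle pool.

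**Figure D1:**
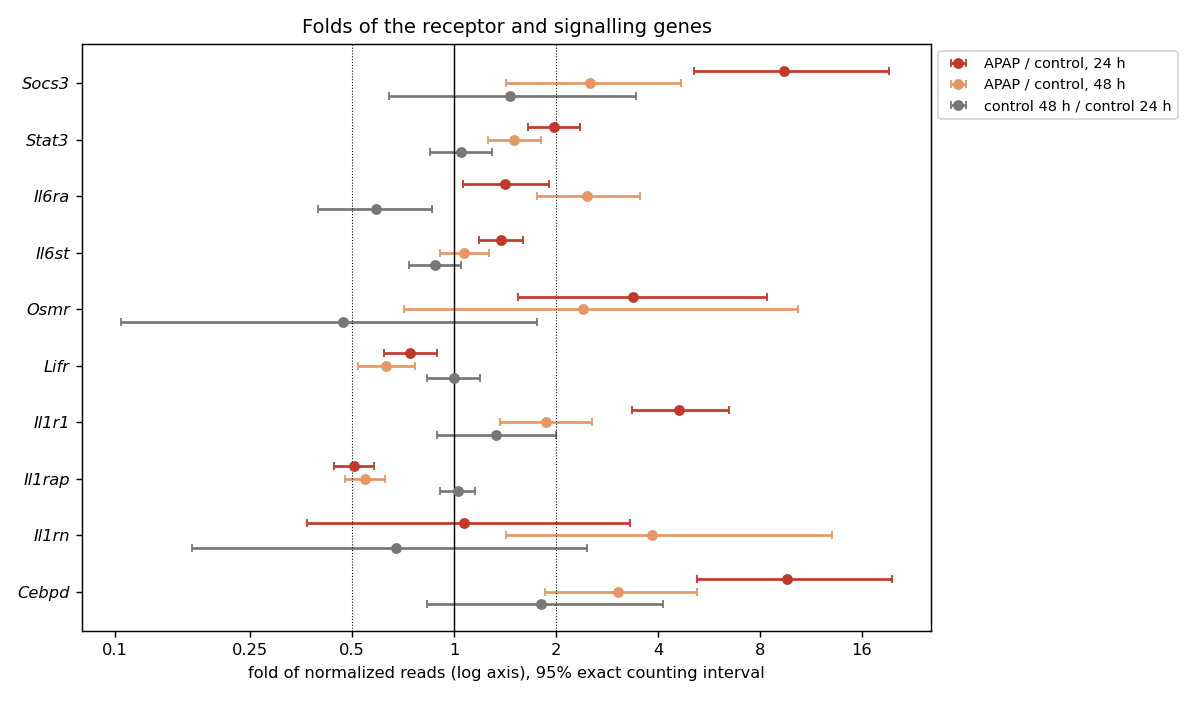
Folds of normalized reads for the 10 genes on a log axis, with points for APAP over control at 24 h (red) and 48 h (orange) and for the vehicle pool at 48 h over that at 24 h (grey), and bars for the 95% exact counting interval. Socs3 and Cebpd lie furthest to the right at 24 h, at 9.40 and 9.60, whereas Il1rap and Lifr lie left of 1 at both times.

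Il6ra (ENSMUSG00000027947, GRCm38 chr3:89864059-89913196, minus strand) encodes the alpha chain that binds IL-6. It was counted with 74 reads in the vehicle pool and 140 in the APAP-treated pool at 24 h, and then 46 and 130 reads at 48 h. The fold was 1.42 (1.06 to 1.90) at 24 h, compared with 2.47 (1.75 to 3.54) at 48 h. The APAP-treated pools lay above both vehicle pools, but the vehicle pools themselves differed, with that of 48 h at 0.586 (0.397 to 0.858) of that of 24 h. Which control was used decided the call: against the 24 h vehicle pool the APAP-treated pool at 48 h was 1.45-fold higher, against the sum of both vehicle pools 1.84-fold higher, and neither reached 2-fold.

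Il6st (ENSMUSG00000021756, chr13:112464070-112510086, plus strand) encodes gp130, the chain that most IL-6 family receptors share. Its reads were 276 in the vehicle pool and 506 in the APAP-treated pool at 24 h, and 257 and 315 at 48 h. The fold of 1.37 (1.18 to 1.6) at 24 h lay above 1, and that of 1.07 (0.906 to 1.27) at 48 h could not be told from 1 with this scaling. Scaled by library totals, the fold at 48 h was 1.29 (1.09 to 1.53), above 1. The vehicle pools lay at 0.878 (0.738 to 1.04) of each other, and against the 24 h vehicle pool the fold at 48 h was 0.941. With size factors, the APAP-treated pool at 24 h was thus the one library that stood apart for this gene.

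Osmr (ENSMUSG00000022146, chr15:6813577-6874969, minus strand) encodes the oncostatin M receptor chain that pairs with gp130. It was sparse, with 8 reads in the vehicle pool and 36 in the APAP-treated pool at 24 h and with 4 and 11 at 48 h. The fold was 3.37 (1.54 to 8.40) at 24 h. At 48 h it was 2.40, but the interval from 0.713 to 10.4 did not separate the pools, and the interval between the vehicle pools (0.472, 0.104 to 1.76) also held 1. With the vehicle pools exchanged the folds of Osmr were 7.15 at 24 h and 1.13 at 48 h. Lifr (ENSMUSG00000054263, chr15:7090614-7197489, plus strand), also on chromosome 15, encodes the leukaemia inhibitory factor receptor, another partner of gp130. It had 244 reads in the vehicle pool and 242 in the APAP-treated pool at 24 h, and 258 and 186 at 48 h. After scaling, the APAP-treated pools were at 0.743 (0.619 to 0.891) and 0.630 (0.519 to 0.764) of their controls, and the vehicle pools lay at 0.997 (0.834 to 1.19) of each other. Lifr was therefore below control at both times by less than 2-fold with this scaling, in the opposite direction to Osmr at 24 h. Scaled by library totals instead, its fold at 24 h was 0.846 (0.705 to 1.01), an interval that held 1. At 48 h it was then 0.758 (0.624 to 0.919). Whether Lifr differed at 24 h thus depended on the scaling.

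Stat3 (ENSMUSG00000004040, chr11:100885098-100939540, minus strand) encodes the transcription factor on which gp130 signals converge. It gave 174 reads in the vehicle pool and 457 in the APAP-treated pool at 24 h, and 193 and 332 at 48 h. The fold was 1.97 (1.65 to 2.36) at 24 h, just short of 2, and 1.5 (1.26 to 1.81) at 48 h. Both APAP-treated pools lay above both vehicle pools, which differed by 1.05-fold (0.848 to 1.29). Scaled by library totals, which moved the median log2 fold of all genes by 0.19, Stat3 passed 2-fold at 24 h (2.24). Stat3 shares 72 bases with Stat5a on the opposite strand, and Stat5a had 15 and 33 reads in the vehicle pools and 29 and 30 in the APAP-treated pools at 24 h and 48 h. Whether reads were assigned by strand is not given in the sources used here.

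Socs3 (ENSMUSG00000053113, chr11:117966079-117970047, minus strand) encodes the feedback inhibitor that STAT3 induces. It was counted with 11 reads in the vehicle pool and 138 in the APAP-treated pool at 24 h, and then 17 and 49 at 48 h, so both APAP-treated pools lay above both vehicle pools. The fold was 9.40 (5.09 to 19.3) at 24 h, compared with 2.52 (1.43 to 4.67) at 48 h. Among the 12185 genes tested its fold ranked 28 from the top at 24 h and 359 at 48 h. The vehicle pools differed by 1.46-fold (0.644 to 3.44), an interval that holds 1.

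Cebpd (ENSMUSG00000071637, chr16:15887286-15891031, plus strand, 1 exon) followed the same order of libraries as Socs3. Its reads numbered 11 in the vehicle pool and 141 in the APAP-treated pool at 24 h, and 21 and 73 at 48 h. The fold was 9.60 (5.21 to 19.7) at 24 h, compared with 3.04 (1.85 to 5.2) at 48 h, and its rank went from 27 to 234 from the top. The vehicle pools differed by 1.80-fold (0.830 to 4.14), an interval that holds 1, but with the vehicle pools exchanged the fold of Cebpd was 5.33 at 24 h and 5.47 at 48 h, so its difference between the times depended on which vehicle pool was used. The gene shares 1808 bases with Spidr on the opposite strand. Spidr had 65 and 94 reads in the vehicle pools and 92 and 84 in the APAP-treated pools at 24 h and 48 h, and did not show the excess of the 24 h APAP-treated pool that Cebpd showed.

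**Figure D2:**
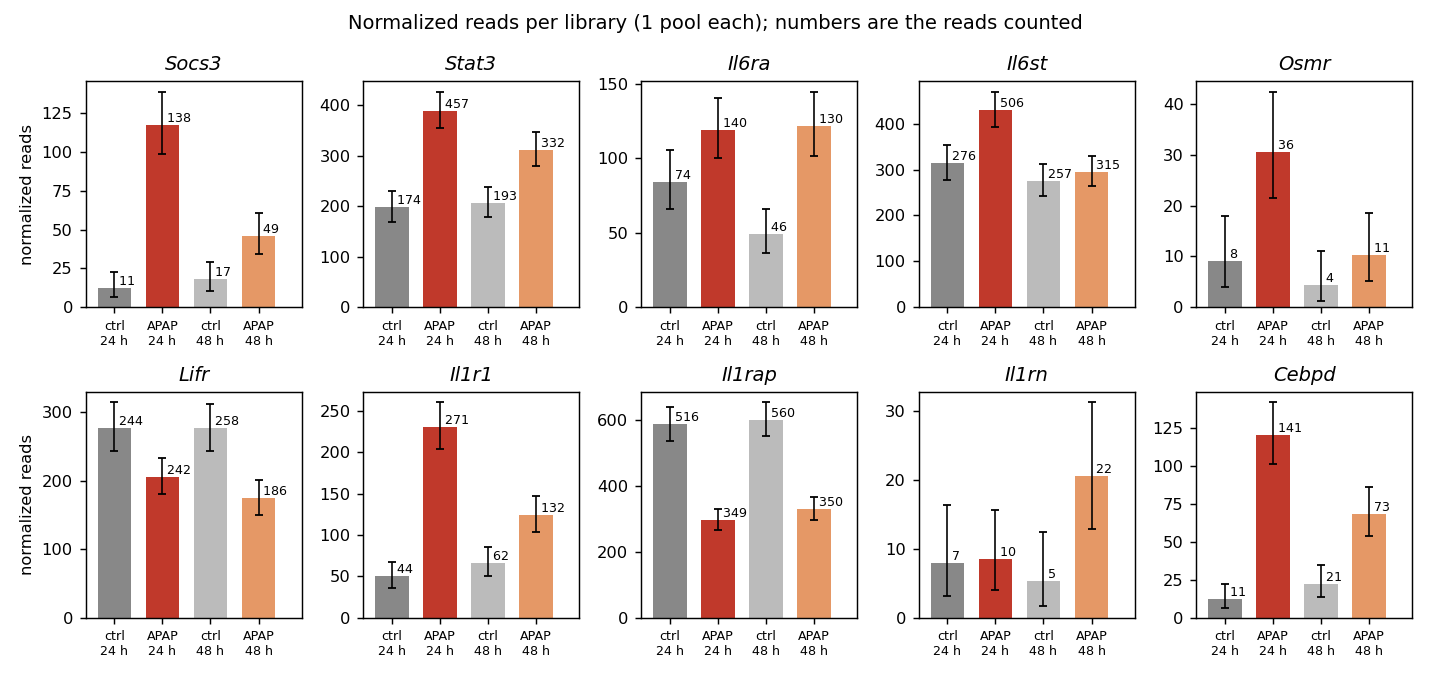
Normalized reads of each of the 10 genes in the 4 libraries, with bars for 1 pool each, error bars for the 95% exact counting interval and numbers for the reads counted. The APAP-treated pool at 24 h is the tallest bar for Socs3, Stat3, Il6st, Osmr, Il1r1 and Cebpd, the APAP-treated pool at 48 h for Il1rn and, by a small margin, Il6ra, and a vehicle pool for Lifr and Il1rap.

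Il1r1 (ENSMUSG00000026072, chr1:40225080-40317257, plus strand) encodes the receptor chain that binds IL-1. It was counted with 44 reads in the vehicle pool and 271 in the APAP-treated pool at 24 h, and then 62 and 132 at 48 h. The fold was 4.61 (3.35 to 6.50) at 24 h, ranking 101 from the top, and 1.86 (1.37 to 2.56) at 48 h. Both APAP-treated pools lay above both vehicle pools, and the vehicle pools differed by 1.33-fold (0.889 to 2.00). Against the 24 h vehicle pool, Il1r1 passed 2-fold at 48 h as well (2.47). Another annotated gene, Gm38070, lies within Il1r1 on the same strand, at 40238020-40244499, and its reads were not examined.

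Il1rap (ENSMUSG00000022514, chr16:26581704-26730117, plus strand) encodes the accessory chain without which Il1r1 does not signal. It went the other way, with 516 reads in the vehicle pool and 349 in the APAP-treated pool at 24 h, and 560 and 350 at 48 h. The APAP-treated pools were at 0.507 (0.441 to 0.582) and 0.547 (0.477 to 0.626) of their controls, just short of 2-fold lower, and the vehicle pools lay at 1.02 (0.907 to 1.16) of each other. Against the 48 h vehicle pool the fold at 24 h was 0.495, which passed the threshold. Its 4 coding transcripts end at 4 different 3′ ends, and the counts do not separate them. The antisense gene Gm20319, at 26714446-26755502 on the opposite strand, spans the annotated end of Il1rap. Its reads were not examined, and whether reads were assigned by strand is not given in the sources used here.

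Il1rn (ENSMUSG00000026981, chr2:24336853-24351494, plus strand) encodes the IL-1 receptor antagonist. It was counted with 7 reads in the vehicle pool and 10 in the APAP-treated pool at 24 h, and then 5 and 22 at 48 h. The fold was 1.07 (0.368 to 3.31) at 24 h, where no difference was detectable at this depth, and 3.85 (1.42 to 13) at 48 h, ranking 130 from the top. The vehicle pools differed by 0.674 (0.169 to 2.47), within counting error. The 48 h APAP-treated pool thus held the most Il1rn reads of the 4, whereas Il1r1 was highest in the APAP-treated pool at 24 h.

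The receptor chains were also compared within each library, as the share that one chain takes of the reads of a pair, which no scaling between libraries can change. The pairs were chosen after their values were seen, and because 3′ counts need not measure both chains alike, a share is compared only between libraries. Il1r1 made up 7.86% (5.77 to 10.4) and 9.97% (7.73 to 12.6) of the Il1r1 and Il1rap reads in the vehicle pools at 24 h and 48 h. In the APAP-treated pools it made up 43.7% (39.8 to 47.7) and 27.4% (23.5 to 31.6). The share of the ligand-binding chain was thus higher in both APAP-treated pools than in either vehicle pool, and the intervals of the APAP-treated pools overlapped neither control. Osmr made up 3.17% (1.38 to 6.16) and 1.53% (0.418 to 3.86) of the Osmr and Lifr reads in the vehicle pools, and 12.9% (9.24 to 17.5) and 5.58% (2.82 to 9.77) in the APAP-treated pools. For this pair the APAP-treated pool at 24 h stood clear of both controls, and the interval at 48 h overlapped them. Il6ra made up 21.1% (17 to 25.8) and 15.2% (11.3 to 19.7) of the Il6ra and Il6st reads in the vehicle pools, and 21.7% (18.6 to 25.1) and 29.2% (25 to 33.7) in the APAP-treated pools. At 24 h the Il6ra share differed little between the pools, and at 48 h the APAP-treated pool lay above its own control but overlapped that of 24 h.

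**Figure D3:**
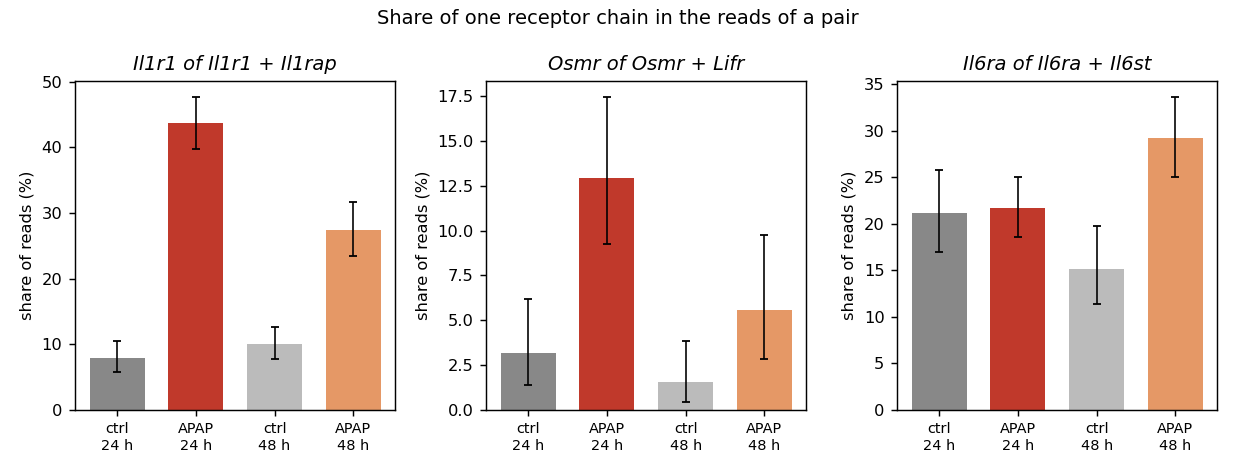
Share, in percent of reads, of one receptor chain in the reads of a pair in each library, with error bars for the 95% exact binomial interval. The share of Il1r1 reaches 43.7% and 27.4% in the APAP-treated pools against 7.86% and 9.97% in the vehicle pools.

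The folds at 48 h and 24 h were compared directly as their ratio, from the 4 read counts of each gene. For 5 of the 10 genes (10.9% of all genes tested) the ratio lay below 1, that is, the fold was smaller at 48 h: Socs3 at 0.268 (0.106 to 0.660), Cebpd at 0.317 (0.131 to 0.734), Il1r1 at 0.403 (0.254 to 0.640), Stat3 at 0.764 (0.591 to 0.988) and Il6st at 0.780 (0.622 to 0.979). For Il6ra it lay above 1, at 1.74 (1.10 to 2.78), as for 8.81% of all genes. With a 99% interval the first 3 of these genes still lay below 1, and Stat3, Il6st and Il6ra did not separate from it. For Il1rn the ratio was 3.59, but its interval from 0.746 to 17.9 held 1, as did those of Osmr at 0.713 (0.153 to 3.9), Lifr at 0.848 (0.649 to 1.11) and Il1rap at 1.08 (0.887 to 1.31). The feedback inhibitor, C/EBP-delta and the IL-1 binding chain thus had the smallest ratios of the 10 against the controls of the same time. With the vehicle pools exchanged the folds at 24 h and 48 h were 6.45 and 3.67 for Socs3 and 3.47 and 2.47 for Il1r1. Those of Cebpd were then 5.33 and 5.47, and for Il6ra the order of the times turned, at 2.42 and 1.45.

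Neither vehicle pool received APAP, so the drug did not make their difference. It joins differences between pools with those between 24 h and 48 h, which 1 library each cannot separate. None of the 10 genes differed by 2-fold with an interval clear of 1, against 1.79% of all genes higher and 1.45% lower at 48 h over 24 h. By the interval alone, Il6ra lay below 1 and no member above it, where 10.7% of all genes lay above and 8.13% below. The median log2 fold of the 10 genes between the controls was 0.01.

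The other genes of these pathways were counted in 9 lists written from general knowledge, which held 95 genes, of which 90 were in the table and 67 had a mean of at least 10 reads. Of the 67, 18 were higher and 2 lower at 24 h, and 11 were higher and 2 lower at 48 h, beside 4.97% and 4.91% of all genes at 24 h and 4.88% and 4.95% at 48 h. Among the ligands of the IL-6 family, Ctf1, which acts through Lifr and gp130, had enough reads to be tested, with 18 and 26 in the vehicle pools and 28 and 27 in the APAP-treated pools, and its folds of 1.17 (0.622 to 2.24) and 0.908 (0.510 to 1.62) held 1. The ligands Il11, Osm, Lif, Il1a and Il1b were near the limit of detection. Il11 was counted with 2 and 1 reads in the vehicle pools and 9 and 4 in the APAP-treated pools at 24 h and 48 h. Osm had 0 and 2 reads in the vehicle pools and 0 and 2 in the APAP-treated pools, and Lif had 0 in both vehicle pools and 1 in each APAP-treated pool. Il1a had 5 and 4 reads in the vehicle pools and 4 and 12 in the APAP-treated pools, and Il1b had 1 and 0 against 4 and 1. At these counts no difference in Il11, Osm, Lif, Il1a or Il1b was detectable, and Il6 was not analysed here. Of the 2 IL-1 family ligands with enough reads, Il33, an alarmin, was higher at 48 h, with 7 reads in the vehicle pool and 21 in the APAP-treated pool (2.62-fold, 1.07 to 7.31), but not against the other vehicle pool (1.73-fold, 0.781 to 4.12). The other, Il18, lay below control by less than 2-fold, at 0.586 (0.368 to 0.927) and 0.648 (0.419 to 0.993).

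None of the 8 JAK-STAT transducers tested beside Stat3, none of the 9 IL-1 signal transducers and none of the other receptors (2 of the gp130 family and 2 of the IL-1 family tested) was higher or lower at either time. The kinase gene Jak2 came nearest, at 1.999-fold (1.17 to 3.51) at 48 h, just under the threshold. Against the 24 h vehicle pool Jak2 was at 1.16-fold (0.735 to 1.86) at 48 h. Of the 6 JAK-STAT brakes tested beside Socs3, 2 were higher at 24 h, Socs2 at 2.20-fold (1.43 to 3.47) and the phosphatase gene Ptpn2 at 2.31-fold (1.46 to 3.74), and 1 at 48 h, Pias3 at 2.27-fold (1.06 to 5.28). For Socs2 the vehicle pools differed by 2.34-fold, with 29 reads at 24 h and 72 at 48 h, and against the 48 h vehicle pool the 24 h APAP-treated pool was at 0.938. Ptpn2 at 24 h and Pias3 at 48 h also fell short of the threshold against the other vehicle pool, at 1.67-fold and 1.95-fold, so that none of the 3 was higher under both. Of the 5 other C/EBP genes, Cebpb at 2.06-fold (1.83 to 2.31) and Ddit3, a stress-induced member, at 5.78-fold (3.66 to 9.59) were higher at 24 h and Cebpe was lower at 0.354 (0.186 to 0.646), whereas none passed at 48 h. Socs3 and Cebpd had larger folds at 24 h than these other brakes and C/EBP genes, but the intervals of both overlapped that of Ddit3, and against the 48 h vehicle pool Ddit3 (7.57) lay above Socs3 (6.45) and Cebpd (5.33).

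Of the 32 response genes of hepatic IL-6 and IL-1 signalling that were tested, 14 were higher and 1 lower at 24 h (4.97% and 4.91% of all genes), and 9 were higher and 2 lower at 48 h (4.88% and 4.95%). Their median log2 fold was 0.84 and 0.58, beside 0.01 and -0.01 over all genes. Timp1, an inhibitor of matrix proteases, had 3 and 4 reads in the vehicle pools and 26 and 51 in the APAP-treated pools at 24 h and 48 h, or 6.49-fold (1.99 to 33.5) and 11.1-fold (4.10 to 42.5). The early-response transcription factor genes Myc, at 6.74-fold (2.42 to 26.1), and Junb, at 4.77-fold (3.03 to 7.85), were higher at 24 h, as Socs3 was, and at 48 h they were at 1.67-fold (0.769 to 3.83) and 2.29-fold (1.48 to 3.65). For Myc this order turned with the vehicle pools exchanged, at 2.60-fold and 4.33-fold. Apcs, which encodes serum amyloid P, was at 2.76-fold and 4.04-fold, and Lcn2, which encodes the iron-binding protein lipocalin 2, at 2.38-fold and 4.51-fold.

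Some acute-phase genes also differed between the vehicle pools. Of the 32, 4 were lower by the same rule in the vehicle pool at 48 h than at 24 h, with Saa3 at 0.107 (1487 reads at 24 h, 168 at 48 h), Lcn2 at 0.171 (3710 and 673 reads), Saa2 at 0.360 and Hp at 0.496. In the APAP-treated pools Saa3 had 195 and 147 reads, so its fold of 0.098 at 24 h became 0.922 against the 48 h vehicle pool. For Lcn2 the direction at 48 h turned, to 0.772 (0.737 to 0.809) against the 24 h vehicle pool, and at 24 h it was 13.9-fold higher against the 48 h vehicle pool. Saa1 and Saa2, close paralogs whose reads the counting could split, were lower at 48 h, at 0.355 and 0.336. Against the vehicle pool of the other time, a comparison added after the data were seen, 16 of the 32 were higher and none lower at 24 h, and 7 were higher and 3 lower (Saa1, Saa2 and Saa3) at 48 h. No serum amyloid A gene was 2-fold higher at 24 h under either control.

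**Figure D4:**
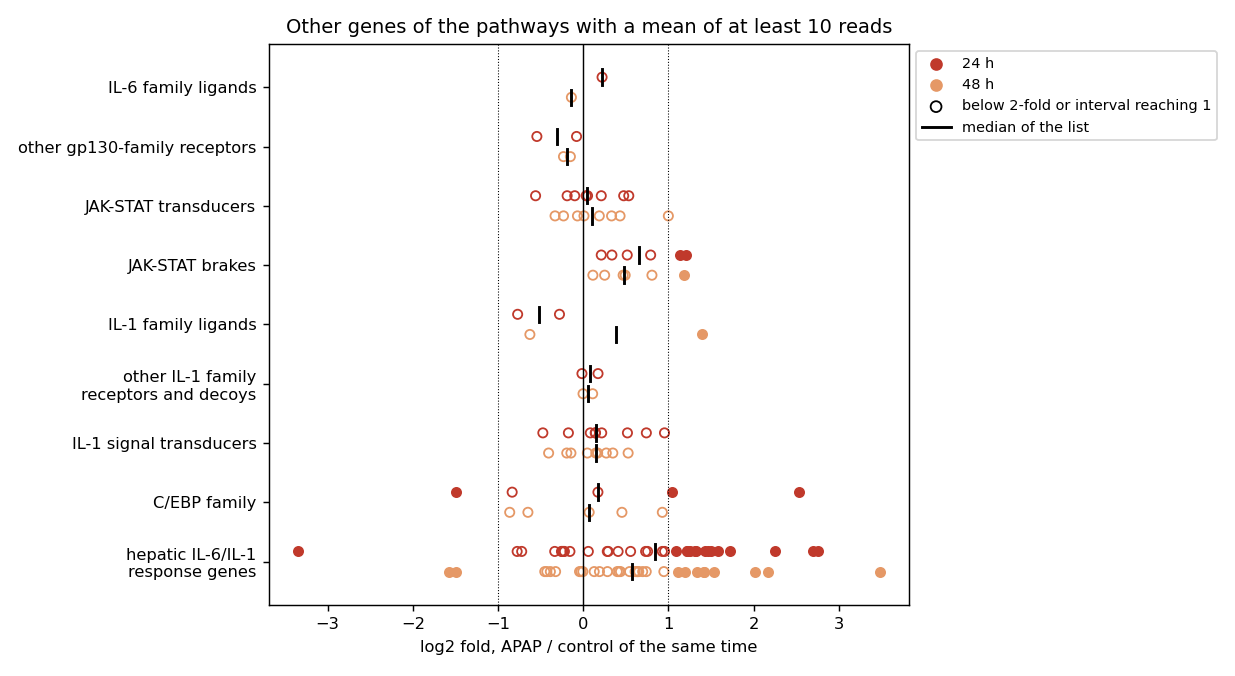
Log2 folds of APAP over control of the same time for the other genes of the pathways with a mean of at least 10 reads, by list, with red points for 24 h and orange points for 48 h. Filled points are genes at least 2-fold higher or lower with an interval clear of 1, black ticks are list medians, and most filled points belong to the response genes (14 higher and 1 lower at 24 h, 9 and 2 at 48 h).

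Marker genes of other cells differed between the pools too, and in bulk RNA a change in the number of cells of a type and a change in the RNA per cell cannot be told apart. The summed normalized reads of the 5 neutrophil markers in the table were 18.2 in each vehicle pool and 213 and 160 in the APAP-treated pools at 24 h and 48 h, with 3 of 3 tested higher at 24 h and 2 of 3 at 48 h. Csf3r was at 0 reads in the vehicle pool at 48 h and Cxcr2 in the APAP-treated pool at 48 h. Monocyte and macrophage markers summed to 385 and 430 in the vehicle pools and to 692 and 1231 in the APAP-treated pools, with 3 and 4 of 6 higher. Stellate cell markers summed to 431 and 481 in the vehicle pools and to 545 and 808 in the APAP-treated pools, with 0 and 2 of 6 higher. Endothelial markers, with 1 of 5 higher at each time, summed to 402 and 449 in the vehicle pools and to 491 and 519 in the APAP-treated pools. Kupffer cell markers, also with 1 of 5 higher at each time, summed to 688 and 654 against 695 and 937. Cholangiocyte markers summed to 84.1 and 107 in the vehicle pools and 285 and 148 in the APAP-treated pools, with 1 of 1 tested (Sox9) higher at 24 h. Sox9 held most of that sum, with 58 and 69 reads in the vehicle pools and 307 and 141 in the APAP-treated pools, whereas Krt19, Krt7 and Epcam each had at most 15 reads. Lymphocyte markers summed to at most 13.6, and hepatocyte markers to 441049 and 452558 in the vehicle pools and 378914 and 440564 in the APAP-treated pools. The part of these cells in the values of the 10 genes was not tested.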

How the data were processed

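Hepatic RNA was analysed as 4 pools, 1 MACE library each, grouped by their labels. The authors removed duplicate reads by molecular identifiers, trimmed with cutadapt, mapped to mm10 (GRCm38) and deposited HTSeq read counts per gene. The submitters' processing notes name mm10, HTSeq and DESeq2, and versions are not given in the sources used here. The same table holds the authors' RPM values, log2 ratios, p-values and FDR values, which were not used.

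Size factors by DESeq2 1.42.0 (median of ratios) were computed in R 4.3.3 from the 4 count columns, and edgeR 4.0.16 (TMM) was an alternative for the folds at each time. Only APAP against vehicle over both times was tested, by edgeR's quasi-likelihood test with Benjamini-Hochberg adjustment (treatment as the only term, 2 residual degrees of freedom), with time as a block and DESeq2 as alternatives, all chosen after the data were seen. Pools of one treatment then stand as replicates. The edgeR test used TMM normalization, so its log2 folds are scaled otherwise than the folds at each time. Totals of 4859661 and 5191990 reads (control pools) and 5698778 and 4938164 reads (APAP pools, 24 h and 48 h) limit precision. Fold intervals are 95% exact (Clopper-Pearson) intervals of the reads of both libraries, and the ratio of folds has an exact conditional interval (noncentral hypergeometric). For the folds, a count of 3 reads or fewer in either library was set to 3, and no fold was formed where both counts were that low. Shares of all genes are over those with a mean of at least 10 reads. Python 3.11.15 and scipy 1.17.1 were used. The procedure was tested on simulated data. Positions are from GENCODE (GRCm38), promoters from RefSeq, and the last 300 bases of each of the 10 genes shared at least 95% identity over 100 bases with no other gene (blastn 2.17.0).

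All 10 genes are described. From each pathway list, genes past the threshold are named where there are 6 or fewer, otherwise the 6 with the largest fold, besides the ligands Il11, Osm, Lif, Il1a and Il1b. Further genes (Jak2, Ctf1, Il18, Saa1, Saa2, Hp, Stat5a, Il31ra and Spidr) were named after their values were seen. The genes, lists and alternatives were chosen with earlier results of these data known.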

Additional observations from a re-analysis of the deposited data

Results flagged for a closer look

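For 6 of the 10 genes the fold of APAP over control differed between 24 h and 48 h, by an exact conditional interval of the ratio of both folds that did not hold 1, with 5 below 1 and 1 above it, beside 10.9% and 8.81% of all genes tested. The interval compares 4 libraries and covers counting error only, so it does not extend to mice. The fold at 48 h was smaller than at 24 h for Socs3 (ratio 0.268), Cebpd (ratio 0.317) and Il1r1 (ratio 0.403), and these 3 also stayed clear of 1 with a 99% interval, whose upper bounds were 0.850, 0.927 and 0.733. Stat3 (ratio 0.764) and Il6st (ratio 0.780) were smaller at 48 h by the 95% interval alone, with upper 99% bounds of 1.07 and 1.05. Il6ra, with a ratio of 1.74, was the one gene of the 6 with the larger fold at 48 h, and its lower 99% bound was 0.961. For Cebpd the ratio depended on the vehicle pools (11 reads at 24 h, 21 at 48 h), since with these exchanged its folds were 5.33 at 24 h and 5.47 at 48 h. For Il6ra the vehicle pools differed, with 74 reads at 24 h and 46 at 48 h, while the APAP-treated pools held 140 and 130. With the vehicle pools exchanged its folds were 2.42 at 24 h and 1.45 at 48 h, so the order of the times turned. The exchange also brought the folds closer together for Socs3 (6.45 at 24 h, 3.67 at 48 h) and Il1r1 (3.47 and 2.47), still smaller at 48 h. No interval was computed for the ratios of exchanged pools.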

How the results depend on the processing

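No paired analysis was possible within a time point, because each group is 1 library there. In the test over both times, the replicate block by time gave 8 of the 10 genes past an adjusted p of 0.05 by edgeR, against 5 without it, 5 with DESeq2 and 7 with all genes that had a read, and leaving out each pool gave 0 to 6. Of all genes, 1.43% were higher and 3.5% lower with DESeq2, and 2.59% and 3.23% where all genes with a read were tested. Under TMM normalization, library totals, a pseudocount of 1, the other vehicle pool and the sum of both vehicle pools, 90 of 100 folds of the 10 genes kept their direction and side of the threshold, 7 passed it in addition, 2 no longer passed it and 1 changed direction (Il6st at 48 h, from 1.07 to 0.941 against the other vehicle pool, not past the threshold in either). At 24 h Stat3 passed 2-fold with TMM normalization (2.00) and library totals (2.24), and against the 48 h vehicle pool Il6ra (2.42) and Il1rap (0.495) passed. At 48 h Il1r1 passed with library totals (2.24), the other vehicle pool (2.47) and the sum of both (2.12), and Il6ra did not pass with the latter 2 (1.45 and 1.84). Library totals moved the median log2 fold of all genes by 0.19 at 24 h and 0.27 at 48 h.

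The threshold moved the counts more. At 24 h, 9 of the 10 genes had an interval clear of 1. At 48 h, 8 did, and 8 passed 1.5-fold. By the interval alone, 15.4% of all genes lay above 1 and 18.2% below at 24 h, and 14% and 18.8% at 48 h. The share of all genes past 1.5-fold was not computed. Between the vehicle pools, 1 gene passed 1.5-fold (Il6ra), 1 passed 2-fold without the interval (Osmr) and 1 passed by the interval alone (Il6ra). Of the 67 genes tested from the pathway lists, the interval alone gave 30 higher and 12 lower at 24 h (18 and 2 in the report). At 48 h it gave 28 higher and 9 lower (11 and 2 in the report). Beside the shares of all genes given above, lower genes were no more frequent in the lists than among all genes. With 1.5-fold, 6 were lower at 24 h, 19 higher at 48 h and 5 lower at 48 h. The genes with differing folds at both times numbered 6 with the 95% interval, 3 with the 99% interval and 4 with library totals. With the other vehicle pool or the sum of both, chosen after seeing the data, the pathway lists gave 17 to 19 genes higher and 2 lower at 24 h, and 8 to 10 higher and 3 lower at 48 h. Counts below about 10 reads, as for most ligands, limit what could be detected.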

Other observations

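Of the JAK-STAT transducers, Stat5a differed between the vehicle pools, with 15 reads at 24 h and 33 at 48 h, while the APAP-treated pools held 29 and 30. Il31ra, which encodes another receptor of the gp130 family, was counted with 1205 and 1074 reads in the vehicle pools and 1523 and 1106 in the APAP-treated pools at 24 h and 48 h, and its entry in the table also covers an overlapping pseudogene.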
